A study of Mus musculus with 13 samples.

Results

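The glucocorticoid receptor gene Nr3c1 and 5 of its known target genes, Zbtb16, Fkbp5, Tsc22d3, Per1 and Klf9, were followed peak by peak in chromatin accessibility data from mouse microglia. Their members were all peaks assigned to these 6 genes by nearest start site, at any distance, together with a pair of peaks in Zbtb16 introns named by position. These rules gave 48 peaks of 38620 in all, and all 48 passed the filter on low counts. Nr3c1 held 10 peaks, Zbtb16 5, Fkbp5 14, Klf9 6, Tsc22d3 9 and Per1 4. Of the 48, 13 were promoter peaks, meaning peaks within 1 kb of a start site, 22 lay in introns, 10 between genes and 3 in exons. The pair of Zbtb16 peaks had been picked for their accessibility in these same libraries, and which comparison picked them is not recorded, so their values are given as a description without a test.

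Microglia, which are the brain's own macrophages, were sorted from male C57BL/6J mice as live CD11b-high, CD45-intermediate, Ly6c-negative cells. ATAC-seq was used to read accessibility, since its transposase inserts adapters where chromatin is open. All mice received an intraperitoneal injection at 10 weeks of age, an oral course of 5 days that began 1 week later, and a last injection at 5 weeks from the first, and brains were taken 3 hours later, at 15 weeks of age. Group names give this order, with P for PBS, L for LPS at 1 mg/kg and B for BLZ945. LPS is a bacterial endotoxin that is sensed by Toll-like receptor 4. BLZ945 inhibits CSF1R, on whose signal microglia depend, and was dosed daily with 169 mg/kg so that microglia were depleted and then grew back. Mice of the groups without B received its vehicle, a solution of 2-hydroxypropyl-beta-cyclodextrin, in its place. PP had PBS, vehicle and PBS, and PBP had PBS, BLZ945 and PBS. PL had PBS, vehicle and LPS, and PBL had PBS, BLZ945 and LPS, so both met LPS for the first time before collection. LL had LPS, vehicle and LPS, and LBL had LPS, BLZ945 and LPS. PBL had 3 libraries and every other group 2, and each library pooled 40000 cells from each of 2 mice. The pools PBL 3_4 and PBL 4_5 both have mouse number 4 in their names, and the labels do not say whether they share a mouse.

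Glucocorticoids, which the adrenal glands release under stress and during systemic inflammation, bind the glucocorticoid receptor in the cytoplasm and send it to the nucleus. There it binds response elements, often far from promoters, and raises the expression of target genes such as Fkbp5, Tsc22d3, Per1, Klf9 and Zbtb16. In macrophages and microglia the receptor is known to restrain inflammatory gene expression, and through Fkbp5 it limits its own activity.

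The RefSeq promoter windows of GRCm38.p6, which hold 300 bases from before to shortly after a start, are shown for Per1, Fkbp5 and Klf9 because each lies wholly inside a promoter peak of its gene, and for Tsc22d3 because its window alone holds a single arm of the receptor's element. They are written on the gene's strand, and capitals mark an E-box, CACGTG, the element of clock and other basic helix-loop-helix factors, in Per1 and Fkbp5, and the single arm in Tsc22d3.
Per1, chr11:69098699-69098998, plus strand: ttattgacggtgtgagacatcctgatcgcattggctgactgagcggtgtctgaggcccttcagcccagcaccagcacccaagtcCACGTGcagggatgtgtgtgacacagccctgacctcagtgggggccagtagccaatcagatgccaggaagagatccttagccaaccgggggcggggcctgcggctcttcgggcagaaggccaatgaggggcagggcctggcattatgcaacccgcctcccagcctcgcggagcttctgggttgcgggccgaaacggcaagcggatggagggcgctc
Fkbp5, chr17:28486100-28486399, minus strand: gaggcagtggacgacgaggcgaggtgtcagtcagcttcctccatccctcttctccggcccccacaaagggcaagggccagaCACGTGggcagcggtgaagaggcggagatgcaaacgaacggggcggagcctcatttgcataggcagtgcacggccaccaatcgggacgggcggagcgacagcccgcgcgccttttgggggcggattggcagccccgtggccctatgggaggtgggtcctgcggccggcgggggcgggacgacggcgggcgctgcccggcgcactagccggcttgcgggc
Klf9, chr19:23140976-23141275, plus strand: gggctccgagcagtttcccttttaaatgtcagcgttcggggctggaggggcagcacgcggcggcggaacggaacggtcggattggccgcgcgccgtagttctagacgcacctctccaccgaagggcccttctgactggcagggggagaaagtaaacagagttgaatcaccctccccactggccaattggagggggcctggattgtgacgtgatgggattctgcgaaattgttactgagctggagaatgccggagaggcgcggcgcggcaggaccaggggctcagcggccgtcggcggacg
Tsc22d3, chrX:140600473-140600772, minus strand: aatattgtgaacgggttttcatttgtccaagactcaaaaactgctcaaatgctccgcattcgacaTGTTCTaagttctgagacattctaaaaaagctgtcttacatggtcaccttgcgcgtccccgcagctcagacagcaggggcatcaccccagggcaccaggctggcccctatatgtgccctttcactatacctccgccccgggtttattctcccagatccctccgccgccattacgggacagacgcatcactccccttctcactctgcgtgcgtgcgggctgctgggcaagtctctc
The glucocorticoid response element was searched as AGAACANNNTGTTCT with up to 2 mismatches in its 12 fixed letters, and its single arm as AGAACA, both on either strand, so that a full element without mismatch also holds the arm. None of the 7 windows of Fkbp5, Klf9, Per1 and Tsc22d3 held the full element, and 1 held the single arm. Among 32851 RefSeq promoter windows of the same length, 1.84% held the full element, 19.0% the single arm and 7.15% an E-box. The E-box was added to the search after the letters had been seen. The Tsc22d3 window shown overlaps no peak. A match is a description of letters only.

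The libraries held between 927840 and 2772688 counts in peaks. Levels below are in CPM, the usual count normalised to a library's scaled total of counts in peaks, and differences are log2 fold changes ± SE from a model of all 13 libraries. Calls needed an adjusted p under 0.05, with adjustment over all 37516 tested peaks. The sorter was an Astrios for the groups PP, PBP and PL, and an XDP for the other 3 groups. Within 1 sorter were therefore PL vs PP and PBP vs PP on the Astrios, and both LBL vs PBL and LBL vs LL on the XDP. Sorter and group cannot be told apart in the other comparisons, and LBL, LL and PBL were each isolated on a day of their own. Both PP libraries and PL 3_4 were isolated on 1 day, and both PBP libraries and PL 1_2 on another. PL 3_4 stood apart, with 53.2% of its counts in promoter peaks against 55.5% to 60.1% in the others. Of 10 microglia markers, 8 had a promoter peak, and their summed level was 416 to 533 CPM in the PBS libraries, 320 to 352 CPM in PL and PBL, and 385 to 433 CPM in LL and LBL. Of 10 markers of monocytes and neutrophils, 1 had a promoter peak, at 18.4 to 20.0 CPM in PP, 28.7 to 30.2 CPM in PBP and 24.3 to 41.9 CPM in the LPS libraries. Ly6c2, Ccr2, S100a8 and S100a9 were among those without one, and of the microglia markers Fcrls and Gpr34 had none. A promoter peak was also found for 2 of 7 markers of border macrophages, 1 of 7 of astrocytes, 2 of 8 of oligodendrocytes, 2 of 7 of endothelial and mural cells, 1 of 6 of lymphocytes and 0 of 7 of neurons. Summed levels over the libraries were 13.6 to 30.5 CPM for border macrophages and 45.9 to 71.5 CPM for astrocytes. For oligodendrocytes they were 18.9 to 32.8 CPM, for endothelial and mural cells 53.7 to 90.3 CPM, and for lymphocytes 10.2 to 19.2 CPM. The astrocyte marker was at 65.2 to 71.5 CPM in LBL. Per marker with a peak, the mean was 55.6 CPM for astrocytes and 49.6 CPM for microglia. The part of these marker levels and their shifts in the results below was not tested. In pools of sorted cells, a peak that is open in fewer cells cannot be told apart from one that is less open in each cell.

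LPS was accompanied by greater accessibility at some distal peaks of the receptor gene and of 4 of the 5 targets. Most member peaks, distal and promoter alike, were not called. In PL vs PP, 8 member peaks were higher and 1 lower, and 7.46% of all tested peaks were called. In PBL vs PBP, 12 were higher and 0 lower, and 9.96% of all tested peaks were called. For LL vs PP the count was 7 higher and 0 lower against 6.13% of all tested peaks, and for LBL vs PBP it was 10 higher and 0 lower against 4.82%. PL and LL share the PP libraries as controls, and PBL and LBL share PBP. Without the pair of Zbtb16 peaks picked by position, the counts among the other 46 were 6 higher and 1 lower, 10 higher, 5 higher and 8 higher. These 6 genes were themselves chosen with results of these libraries known, so the counts describe them and do not show that they stand apart from other genes.

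Most calls lay away from start sites. Of the 35 member peaks outside promoters, 33 were members by gene name, without the picked Zbtb16 pair. Among these 33, 5 were higher in PL vs PP, 10 in PBL vs PBP, 5 in LL vs PP and 8 in LBL vs PBP, and none was lower. Of all tested peaks outside promoters, 6.24%, 8.91%, 5.54% and 5.54% were higher in the same order. Among the 13 promoter peaks, 1 was higher and 1 lower in PL vs PP, where 6.89% of all tested promoter peaks were called. None was called in PBL vs PBP, LL vs PP or LBL vs PBP, where 4.49%, 4.64% and 1.95% of all tested promoter peaks were. At such shares, 13 peaks are too few to tell whether promoters of members differ from other promoters. The median log2 fold change over the 46 members without the picked pair was 0.23 in PL vs PP, 0.30 in PBL vs PBP, 0.39 in LL vs PP and 0.44 in LBL vs PBP, and the median over all tested peaks lay between -0.0038 and 0.012. In 6 of these 46 peaks, all 9 LPS libraries lay above all 4 PBS libraries, a pattern that 4.94% of all tested peaks showed. In none did all 9 lie below, against 1.77% of all tested peaks. PL vs PP was within 1 sorter, and PL 3_4 was isolated on the same day as both PP libraries. Calls in PL vs PP moved with the PL library over all peaks. With PL 1_2 left out, so that only that day remained, 13.5% of all tested peaks were called, and so were 5 of the 6 peaks that were higher outside the picked pair. With PL 3_4 left out instead, 1.80% of all tested peaks were called, and so were 3 of the 6. Log2 fold changes of the 6 were 0.91 to 2.13 without PL 1_2, and the lowest was 0.59 without PL 3_4.

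**Figure D1:**
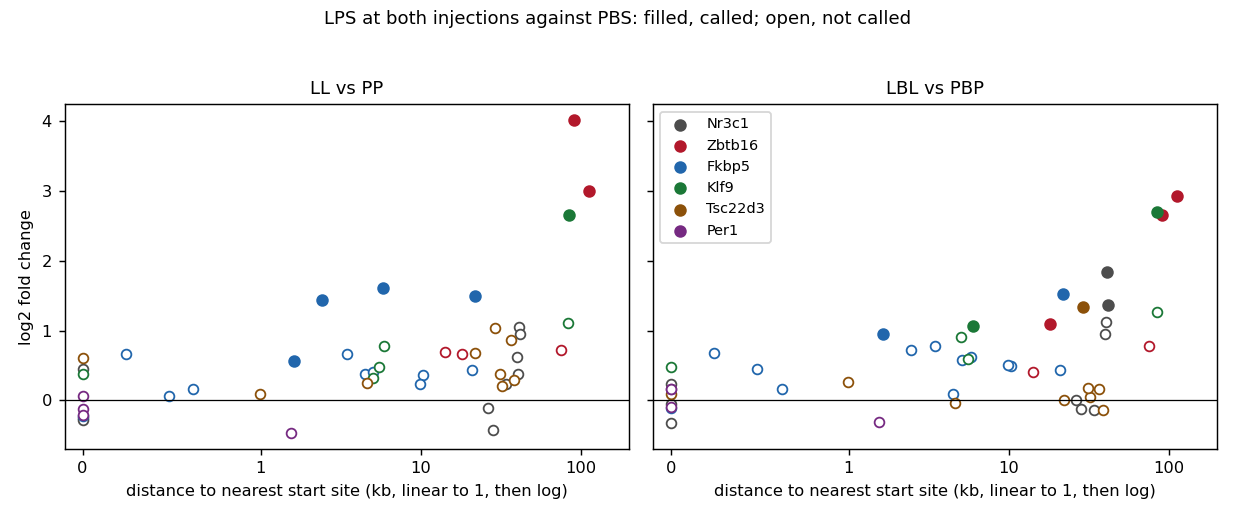
Log2 fold change (vertical axis) of each of the 48 member peaks against its distance in kb to the nearest start site (horizontal axis, linear to 1 kb and logarithmic beyond) for LL vs PP (left) and LBL vs PBP (right), coloured by gene. Filled points were called and open points were not. All filled points lie more than 1 kb from a start site.

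Nr3c1, which encodes the receptor itself, lies on chromosome 18, and 4 of its 10 peaks were called in at least 1 comparison. Such counts, here and for the genes below, only describe each gene. The share of all tested peaks called in at least 1 comparison was not counted. The 3 peaks that rose lay 40267 to 41372 bp from the nearest start site, inside intron 2 and upstream of the gene. A peak between genes, at 39560793 to 39561110 and 41372 bp upstream of a start, measured 7.89 and 13.0 CPM in PP, 9.46 and 5.66 in PBP, 21.0 and 26.4 in PL, 19.0, 23.1 and 25.5 in PBL, 17.0 and 24.1 in LL, and 26.0 and 16.8 in LBL. All 9 LPS libraries lay above all 4 PBS libraries. It rose in PL vs PP (1.16 ± 0.34, adjusted p = 0.0198), in PBL vs PBP (1.51 ± 0.30, adjusted p = 7.52e-05) and in LBL vs PBP (1.36 ± 0.33, adjusted p = 0.00392), and in LL vs PP the difference was 0.95 ± 0.34, adjusted p = 0.0752. The PL call was lost with DESeq2 and without either PP library or PL 3_4, and the LBL call with DESeq2 and without PBP 3_4 or LBL 1_2. Adjusted p-values reached 0.3 and 0.179 over the alternatives.

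Inside intron 2 of Nr3c1, the peak at 39445895 to 39446352 measured 7.36 and 7.98 CPM in PP, 6.71 and 3.02 in PBP, 14.5 and 17.3 in PL, 11.6, 25.4 and 13.2 in PBL, 16.2 and 16.1 in LL, and 14.3 and 21.6 in LBL. Again no LPS library reached down to a PBS library, and PBL 3_4 was the highest. It rose in PBL vs PBP (1.73 ± 0.36, adjusted p = 0.00021) and LBL vs PBP (1.83 ± 0.39, adjusted p = 0.000502), while PL vs PP gave 1.02 ± 0.41, adjusted p = 0.116 and LL vs PP 1.06 ± 0.40, adjusted p = 0.0961. Both calls were lost without PBP 3_4 (log2 fold changes of 1.32 and 1.42), and the LBL call also without LBL 3_4 (1.48), with adjusted p-values up to 0.106 over the alternatives. Close by, at 39446703 to 39446965, a smaller peak measured 2.10 and 7.49 CPM in PP, 1.53 and 4.90 in PBP, 4.15 and 6.66 in PL, 7.73, 11.3 and 8.62 in PBL, 8.24 and 5.83 in LL, and 4.87 and 6.60 in LBL. Its PBS libraries spread widely and overlapped every LPS group except PBL. Its rise in PBL vs PBP (1.77 ± 0.46, adjusted p = 0.00448) rested on PBP 1_2, without which the log2 fold change was 1.02, and its adjusted p reached 0.363.

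The receptor gene has 3 promoter peaks. The widest, at 39489193 to 39490940, measured 149 and 165 CPM in PP, 162 and 143 in PBP, 160.1 and 122 in PL, 161, 136 and 151 in PBL, 132 and 131 in LL, and 149.8 and 146 in LBL. Both LL libraries lay below all PBS libraries, the other LPS groups overlapped them, and no comparison called it. Next to it, the promoter peak at 39490980 to 39491788 measured 75.7 and 80.3 CPM in PP, 68.7 and 81.5 in PBP, 65.8 and 42.9 in PL, 68.5, 57.1 and 58.7 in PBL, 69.9 and 58.3 in LL, and 57.5 and 60.7 in LBL. PL 3_4 was the lowest library here. This peak fell in PL vs PP (-0.53 ± 0.18, adjusted p = 0.0471), and was not called in PBL vs PBP (-0.29 ± 0.15, adjusted p = 0.23). The call was lost with DESeq2, with scaling on promoter peaks, without either PP library, without PL 3_4 (log2 fold change -0.25) or PBL 4_5, and with the PP pair and the LBL pair each summed to 1 library, at adjusted p-values up to 0.631. The third promoter peak, at 39519214 to 39520074, measured 41.0 and 30.4 CPM in PP, 40.3 and 45.3 in PBP, 33.5 and 48.2 in PL, 36.5, 50.0 and 51.2 in PBL, 47.2 and 49.9 in LL, and 48.7 and 51.3 in LBL and was not called. The 4 remaining Nr3c1 peaks ranged from 3.30 to 20.3 CPM and were called nowhere.

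Zbtb16 encodes PLZF, a zinc finger transcription factor and repressor that is strongly induced by glucocorticoids in many cell types. All 5 of its peaks lie in its introns on chromosome 9, the nearest 14190 bp and the farthest 111964 bp from its start, and none is a promoter peak. The first of the picked pair, at 48723398 to 48723981 in intron 3, measured 5.26 and 5.49 CPM in PP, 5.19 and 6.41 in PBP, 25.2 and 31.4 in PL, 17.9, 20.6 and 24.9 in PBL, 46.4 and 44.7 in LL, and 45.5 and 38.1 in LBL. The 4 PBS libraries were the lowest, the 5 libraries after a first LPS lay in between, and the 4 libraries after a second LPS were the highest, with no overlap between the 3 sets. The log2 fold change was 2.31 ± 0.38 in PL vs PP, 2.00 ± 0.33 in PBL vs PBP, 3.00 ± 0.34 in LL vs PP and 2.92 ± 0.31 in LBL vs PBP. Second against first LPS gave 0.68 ± 0.20 in LL vs PL and 0.93 ± 0.19 in LBL vs PBL.

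The second of the pair, at 48744940 to 48745377 in intron 2, measured 1.58 and 2.00 CPM in PP, 4.88 and 2.26 in PBP, 14.8 and 16.2 in PL, 19.7, 13.0 and 13.8 in PBL, 32.2 and 36.2 in LL, and 28.3 and 19.8 in LBL. Its libraries fell into the same 3 sets without overlap, although the lowest LBL library, at 19.8 CPM, lay close to the highest PBL library, at 19.7 CPM. PP held 4 counts in this peak over both libraries, so its folds carry large counting errors. The ratio of scaled counts was 16.7 in LL vs PP, with a 95% interval of 6.41 to 62.2, and 7.67 in PL vs PP, with an interval of 2.83 to 29.1. After repopulation it was 6.30 in LBL vs PBP, with an interval of 3.34 to 13.1, and 4.01 in PBL vs PBP, with an interval of 2.14 to 8.31. These intervals cover counting error only. On the log2 scale the model gave 1.15 ± 0.23 for LL vs PL and 0.66 ± 0.23 for LBL vs PBL.

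The other 3 Zbtb16 peaks were members by gene name alone. The most accessible, at 48817067 to 48817821 in intron 2, measured 30.0 and 29.4 CPM in PP, 22.3 and 20.7 in PBP, 37.3 and 42.1 in PL, 33.7, 28.0 and 38.9 in PBL, 48.4 and 46.1 in LL, and 46.8 and 45.7 in LBL. Here too the 4 second-LPS libraries lay above the 5 first-LPS libraries, while PBL 3_4 fell below both PP libraries. It rose in LBL vs PBP (1.10 ± 0.22, adjusted p = 0.000242) and in PBL vs PBP (0.64 ± 0.21, adjusted p = 0.0352), and LL vs PP gave 0.66 ± 0.22, adjusted p = 0.0552. The LBL call held under every alternative run. The PBL call was lost with DESeq2, with the pool name as a replicate block, and with the PP and LBL pairs summed. It was also lost without either PBP library and without PBL 1_2 or PBL 4_5. Adjusted p-values reached 0.249 over the alternatives. The peak at 48760420 to 48760828, also in intron 2, measured 8.94 and 7.98 CPM in PP, 7.02 and 7.54 in PBP, 8.30 and 8.79 in PL, 10.5, 7.63 and 8.43 in PBL, 14.7 and 12.5 in LL, and 12.7 and 12.7 in LBL. First-LPS and PBS libraries overlapped at 7.02 to 10.5 CPM, and the second-LPS libraries stood above them at 12.5 to 14.7 CPM. No comparison called it, with 0.69 ± 0.31, adjusted p = 0.555 in LL vs PL and 0.58 ± 0.29, adjusted p = 0.349 in LBL vs PBL. The peak nearest the start, at 48821486 to 48821755, ranged from 7.17 to 16.2 CPM over the LPS libraries and from 7.36 to 11.6 CPM over the PBS libraries, and was called nowhere.

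**Figure D2:**
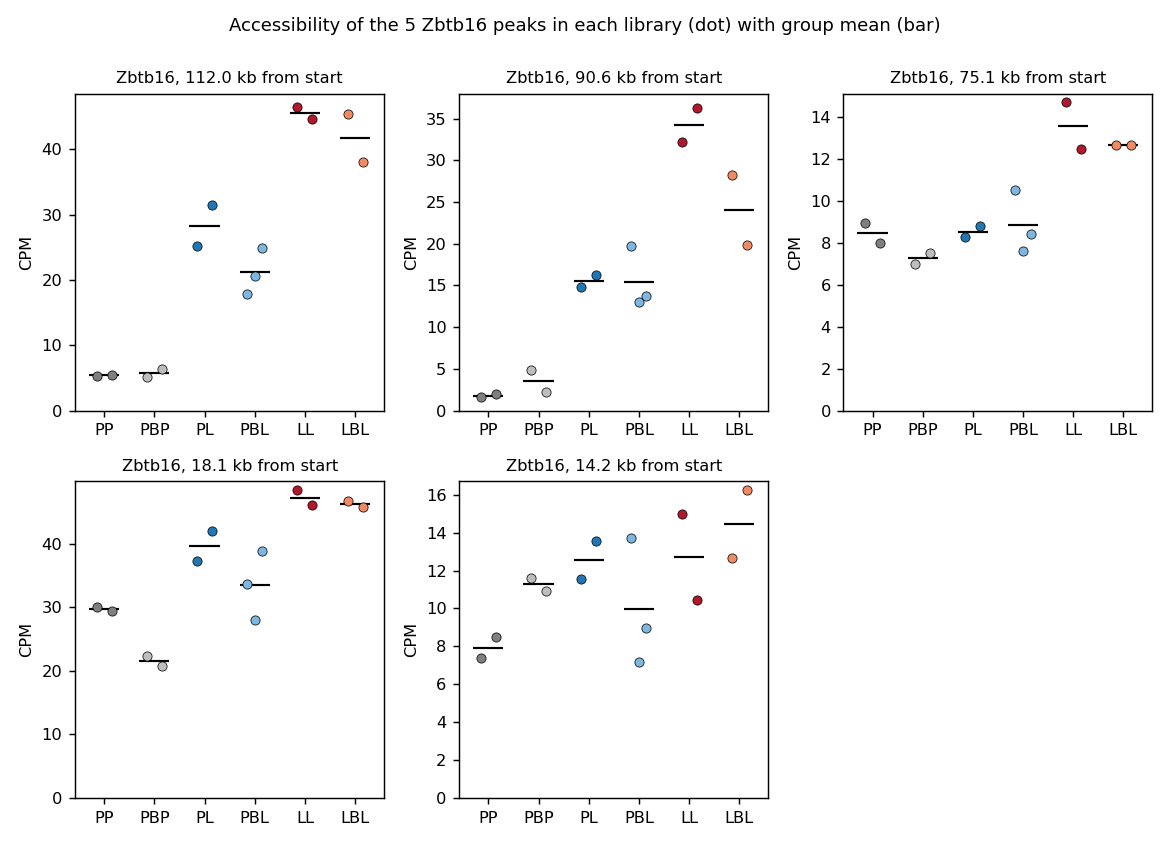
Accessibility in CPM (vertical axis) of the 5 Zbtb16 intron peaks in the 6 groups (horizontal axis), each dot a library and each bar the group mean, with the distance to the start above each panel. In the 4 panels farthest from the start, all 4 LL and LBL libraries lie above all 5 PL and PBL libraries. These panels include the pair picked by position, from which nothing is read. Of all tested peaks, 2.48% showed the same pattern.

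Fkbp5 encodes a co-chaperone of Hsp90 that holds the receptor in a state of low hormone affinity, and is one of its most responsive targets. Of its 14 peaks on chromosome 17, 5 were called, all outside promoters and all higher with LPS. The peak with calls in every LPS comparison lay in intron 1, at 28463679 to 28464368 and 21725 bp from a start. It measured 10.5 and 12.0 CPM in PP, 10.7 and 15.5 in PBP, 27.9 and 31.2 in PL, 20.0, 30.3 and 23.5 in PBL, 30.7 and 32.6 in LL, and 31.2 and 41.6 in LBL. All LPS libraries lay above all PBS libraries. It rose in PL vs PP (1.38 ± 0.32, adjusted p = 0.00202), PBL vs PBP (0.96 ± 0.26, adjusted p = 0.00654), LL vs PP (1.49 ± 0.31, adjusted p = 0.000416) and LBL vs PBP (1.52 ± 0.26, adjusted p = 1.15e-05). The LL and LBL calls held under every alternative run. The PL call was lost without PP 1_2, at an adjusted p of 0.0736, and the PBL call with DESeq2 and without PBP 1_2 or PBL 3_4, at adjusted p-values up to 0.275.

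A further Fkbp5 peak in intron 5, at 28420155 to 28421051, measured 46.8 and 54.9 CPM in PP, 32.0 and 44.9 in PBP, 59.3 and 51.7 in PL, 59.7, 66.4 and 66.7 in PBL, 80.1 and 70.6 in LL, and 68.2 and 77.4 in LBL. The 4 second-LPS libraries were the highest, and first-LPS and PP libraries overlapped. It rose in PBL vs PBP (0.77 ± 0.17, adjusted p = 0.000289), LBL vs PBP (0.95 ± 0.18, adjusted p = 6.11e-05) and LL vs PP (0.57 ± 0.18, adjusted p = 0.0378), while PL vs PP gave 0.13 ± 0.19, adjusted p = 0.763. The difference between the first-LPS responses with and without repopulation was 0.65 ± 0.26, adjusted p = 0.305. Leaving out PBP 1_2 ended the PBL and LBL calls, with log2 fold changes of 0.50 and 0.68. The LL call was lost under 9 of 20 alternatives, among them DESeq2, counts left unrounded, and the loss of any 1 PP, LL or LBL library, at adjusted p-values up to 0.371.

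In intron 3, the small Fkbp5 peak at 28434984 to 28435204 measured 3.16 and 4.49 CPM in PP, 3.66 and 4.90 in PBP, 13.6 and 9.05 in PL, 7.37, 9.48 and 10.1 in PBL, 7.99 and 13.7 in LL, and 4.87 and 7.36 in LBL. LBL alone among the LPS groups reached down to the PBS range, through LBL 1_2. It rose in PL vs PP (1.63 ± 0.52, adjusted p = 0.0337) and LL vs PP (1.62 ± 0.50, adjusted p = 0.0338). Both calls were lost without either PP library and with the PP and LBL pairs summed, the PL call also without PL 1_2 and with isolation day as a term, and the LL call also without LL 3_4. Adjusted p-values reached 0.254 and 0.371. The peak at 28513785 to 28514257, in intron 1 of a longer transcript, measured 11.6 and 17.0 CPM in PP, 12.2 and 32.4 in PBP, 29.9 and 22.6 in PL, 18.3, 27.5 and 27.3 in PBL, 35.2 and 42.2 in LL, and 36.4 and 34.8 in LBL. The 4 second-LPS libraries were the highest and PBP 3_4 stood apart from the other PBS libraries. It rose in LL vs PP (1.43 ± 0.29, adjusted p = 0.000302), a call lost without PP 1_2 at an adjusted p of 0.0802. Upstream, at 28522585 to 28523506 in an exon of a transcript that carries no gene identifier, accessibility was 54.7 and 35.4 CPM in PP, 35.7 and 41.1 in PBP, 67.0 and 42.1 in PL, 61.8, 64.3 and 53.2 in PBL, 62.6 and 56.7 in LL, and 58.5 and 54.8 in LBL. PP 1_2 alone among the PBS libraries reached into the range of the LPS libraries. It rose in PBL vs PBP (0.65 ± 0.17, adjusted p = 0.0059), a call lost with DESeq2 and without PBP 1_2, at adjusted p-values up to 0.221.

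The main Fkbp5 promoter peak did not separate the groups. At 28485296 to 28486660 it measured 102 and 81.3 CPM in PP, 85.4 and 77.3 in PBP, 83.0 and 69.0 in PL, 93.8, 93.7 and 80.5 in PBL, 73.1 and 82.7 in LL, and 76.0 and 75.7 in LBL, and the LPS comparisons gave log2 fold changes from -0.27 to 0.12. The promoter window of Fkbp5 with its E-box lies inside this peak. At 3 smaller promoter peaks the LPS range also overlapped the PBS range. The one at 28428874 to 28429243 measured 13.1 and 7.49 CPM in PP, 13.7 and 13.2 in PBP, 14.8 and 16.2 in PL, 11.6, 18.0 and 16.9 in PBL, 18.0 and 14.9 in LL, and 23.1 and 20.6 in LBL. The one at 28510484 to 28510734 measured 6.84 and 8.48 CPM in PP, 6.71 and 7.54 in PBP, 5.93 and 9.59 in PL, 7.37, 9.48 and 13.4 in PBL, 8.73 and 7.44 in LL, and 4.87 and 10.2 in LBL. The one at 28518009 to 28518578 measured 28.4 and 35.9 CPM in PP, 24.4 and 29.4 in PBP, 37.3 and 29.6 in PL, 36.9, 37.5 and 38.7 in PBL, 29.2 and 38.0 in LL, and 34.4 and 38.1 in LBL. None of the 4 was called in any comparison. The 5 other Fkbp5 peaks ranged from 5.99 to 58.4 CPM and were called nowhere.

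Klf9 encodes a Krüppel-like transcription factor that the receptor induces directly in brain cells. Of its 6 peaks on chromosome 19, 3 were called, all higher with LPS. The strongest change among the members chosen by gene name was at 23056854 to 23057272, in an intron of a transcript without a gene identifier, 83954 bp upstream of the Klf9 start. It measured 3.68 and 2.99 CPM in PP, 2.14 and 4.90 in PBP, 14.2 and 16.0 in PL, 19.3, 15.5 and 15.0 in PBL, 25.5 and 21.1 in LL, and 26.0 and 19.3 in LBL. No LPS library came near the PBS range. Accessibility rose in PL vs PP (2.06 ± 0.49, adjusted p = 0.00244), PBL vs PBP (2.25 ± 0.39, adjusted p = 4.86e-06), LL vs PP (2.66 ± 0.44, adjusted p = 3.27e-06) and LBL vs PBP (2.70 ± 0.40, adjusted p = 1.21e-07). The PBS libraries held few deposited counts here, 3.5 and 3 in PP and 3.5 and 6.5 in PBP. For ratios by counts alone, group sums were rounded to whole numbers, with PP rounded down to 6 and LL up to 104, which raises them. The ratio was 7.54 in LL vs PP, with a 95% interval of 3.35 to 21.0, and 4.93 in PL vs PP, with an interval of 2.12 to 14.0. The calls held under every alternative that gave an adjusted p, except PL vs PP without PP 3_4 (log2 fold change 1.81). For this peak DESeq2 gave no adjusted p in PL vs PP and LL vs PP.

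Nearer to Klf9, 2 neighbouring peaks in exons of a transcript without a gene identifier were called in comparisons with PBP. The peak at 23134792 to 23135302, 5924 bp upstream of the start, measured 14.2 and 14.5 CPM in PP, 9.76 and 8.30 in PBP, 30.8 and 18.6 in PL, 22.8, 33.3 and 26.2 in PBL, 24.5 and 24.7 in LL, and 15.6 and 21.8 in LBL. All LPS libraries lay above all PBS libraries. It rose in PBL vs PBP (1.60 ± 0.28, adjusted p = 5.59e-06), a call that held under every alternative run, and in LBL vs PBP (1.06 ± 0.33, adjusted p = 0.0388). The LBL call was lost with DESeq2, without either PBP library or LBL 3_4 and with the pairs summed, at adjusted p-values up to 0.469. PL vs PP gave 0.77 ± 0.32, adjusted p = 0.128 and LL vs PP 0.78 ± 0.31, adjusted p = 0.112, and the difference between the first-LPS responses was 0.84 ± 0.45, adjusted p = 0.482. Its neighbour at 23135329 to 23135719 measured 8.41 and 11.5 CPM in PP, 6.41 and 7.17 in PBP, 24.3 and 12.0 in PL, 14.0, 13.6 and 13.2 in PBL, 13.7 and 14.7 in LL, and 8.12 and 12.2 in LBL. The PBL libraries lay above all PBS libraries, while LBL 1_2 fell among them. It rose in PBL vs PBP (1.01 ± 0.34, adjusted p = 0.0425), but this call was lost under 9 of 20 alternatives, DESeq2 and the loss of any 1 PBP or PBL library or of LL 1_2 among them, at adjusted p-values up to 0.376. The Klf9 promoter peak, at 23140633 to 23141442, measured 46.3 and 47.4 CPM in PP, 47.6 and 51.7 in PBP, 52.2 and 49.8 in PL, 67.8, 59.0 and 66.4 in PBL, 62.6 and 59.8 in LL, and 69.2 and 68.3 in LBL. PBL, LL and LBL lay above all PBS libraries and PL 3_4 did not, and the largest difference was 0.47 ± 0.17, adjusted p = 0.0856 in LBL vs PBP. The other 2 Klf9 peaks ranged from 2.10 to 23.7 CPM and were not called.

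**Figure D3:**
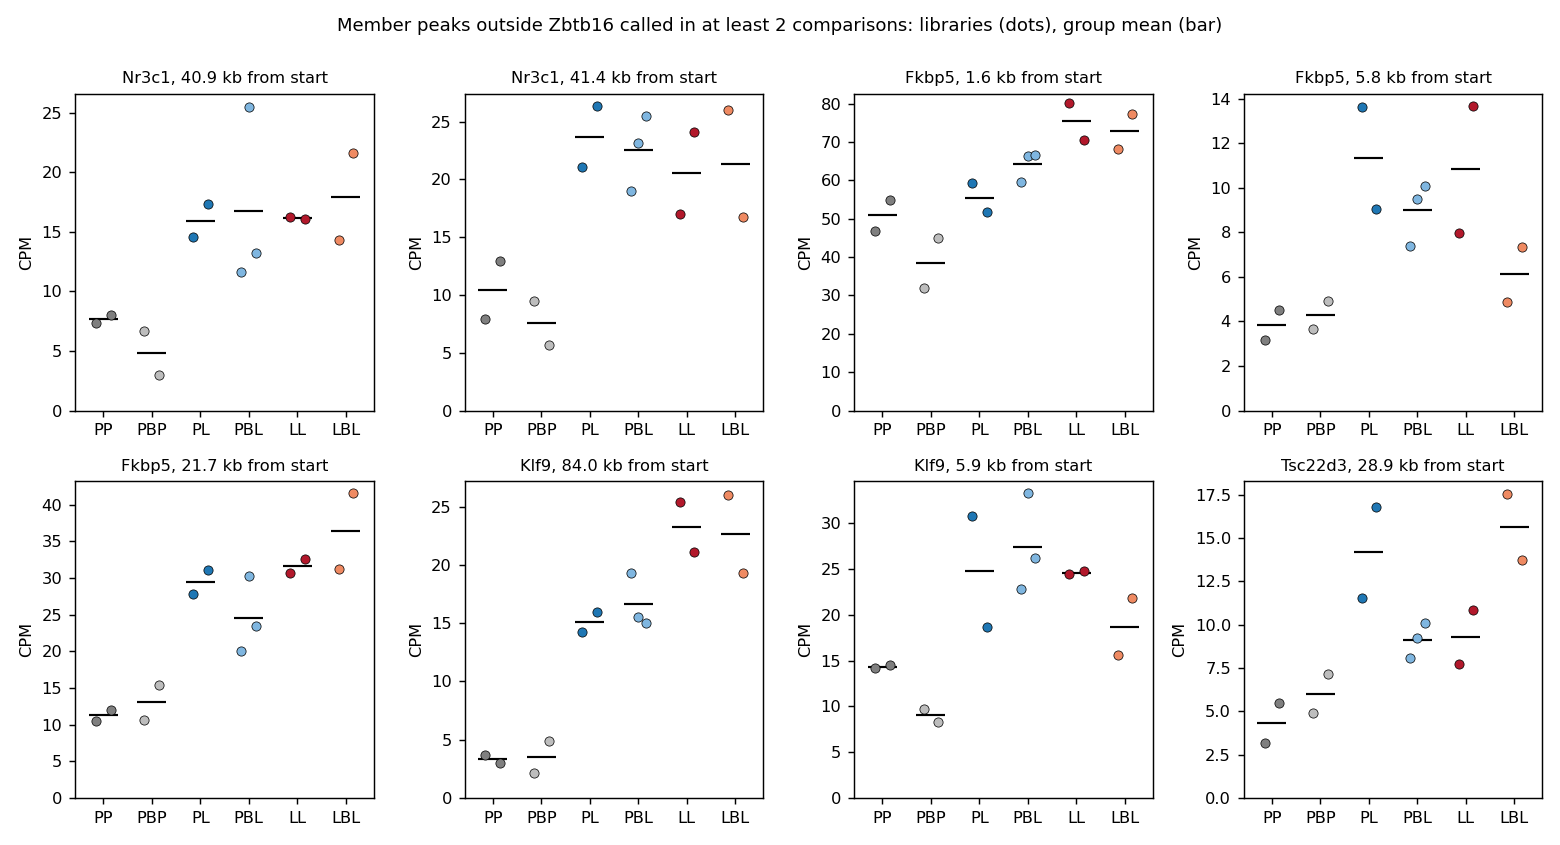
Accessibility in CPM (vertical axis) of the 8 member peaks outside Zbtb16 that were called in at least 2 comparisons, by group (horizontal axis), each dot a library and each bar the group mean. At the Klf9 peak farthest from the start, the LPS libraries sit between 14.2 and 26.0 CPM and the PBS libraries between 2.14 and 4.90 CPM.

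Tsc22d3 encodes GILZ, a leucine zipper protein that carries part of the anti-inflammatory action of glucocorticoids. It lies on chromosome X, and 2 of its 9 peaks were called. A peak between genes at 140513393 to 140513741, 28927 bp from a start, measured 3.16 and 5.49 CPM in PP, 4.88 and 7.17 in PBP, 11.6 and 16.8 in PL, 8.08, 9.25 and 10.1 in PBL, 7.74 and 10.9 in LL, and 17.5 and 13.7 in LBL. Every LPS library lay above every PBS library, with PL and LBL higher than PBL and LL. It rose in PL vs PP (1.65 ± 0.46, adjusted p = 0.0121) and LBL vs PBP (1.33 ± 0.37, adjusted p = 0.0146), and gave 0.64 ± 0.37, adjusted p = 0.33 in PBL vs PBP and 1.04 ± 0.49, adjusted p = 0.199 in LL vs PP. The PL call was lost without either PP library or PL 3_4, and the LBL call with DESeq2 and without PBP 1_2 or LBL 1_2, at adjusted p-values up to 0.24 and 0.343.

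The promoter peak of a Tsc22d3 transcript, at 140542992 to 140543556, measured 27.9 and 28.4 CPM in PP, 34.5 and 48.3 in PBP, 42.1 and 52.2 in PL, 34.4, 36.8 and 42.7 in PBL, 42.4 and 42.0 in LL, and 46.8 and 40.6 in LBL. PP was the lowest group, and both PBP libraries lay within the range of the LPS libraries. It rose in PL vs PP (0.77 ± 0.24, adjusted p = 0.0247) and not in PBL vs PBP (-0.07 ± 0.18, adjusted p = 0.876), and the difference between these responses was -0.85 ± 0.30, adjusted p = 0.224. The PL call was lost with DESeq2, without either PP library or PL 3_4 and with the pairs summed, at adjusted p-values up to 0.31. The other promoter peak, at 140598932 to 140599663, measured 22.1 and 18.5 CPM in PP, 28.4 and 14.0 in PBP, 16.6 and 16.2 in PL, 15.1, 19.0 and 15.6 in PBL, 17.7 and 24.1 in LL, and 28.3 and 23.1 in LBL. Its LPS range overlapped its PBS range and it was called nowhere, as were the 6 remaining peaks between genes, which ranged from 4.49 to 44.3 CPM.

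Per1 encodes a core repressor of the circadian clock, and glucocorticoids induce it within hours in many tissues. None of its 4 peaks on chromosome 11 was called in any comparison. One promoter peak, at 69094698 to 69095359, measured 93.6 and 122 CPM in PP, 121 and 114 in PBP, 112 and 85.7 in PL, 120.5, 98.1 and 125 in PBL, 114 and 111 in LL, and 112 and 108 in LBL. Another, at 69098563 to 69099043, held the Per1 window with its E-box and measured 58.4 and 69.4 CPM in PP, 56.8 and 66.4 in PBP, 60.8 and 58.6 in PL, 69.9, 65.5 and 63.3 in PBL, 56.6 and 61.2 in LL, and 67.3 and 69.3 in LBL. The third, at 69099885 to 69100200, measured 36.8 and 33.4 CPM in PP, 27.8 and 26.0 in PBP, 36.5 and 25.8 in PL, 32.0, 34.0 and 27.0 in PBL, 28.7 and 31.8 in LL, and 29.2 and 31.0 in LBL. At all 3 promoters the LPS range overlapped the PBS range, and log2 fold changes in the LPS comparisons lay between -0.21 and 0.19. The intron 1 peak at 69096939 to 69097407 measured 52.9 to 62.1 CPM in the PBS libraries and 31.4 to 55.1 CPM in the LPS libraries, with -0.47 ± 0.20, adjusted p = 0.157 in LL vs PP.

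Second and first LPS exposure were compared in LL vs PL and, after repopulation, in LBL vs PBL. In LL vs PL 1 member peak was higher and 0 lower, while 0.064% of all tested peaks were called, and in LBL vs PBL 1 was higher and 0 lower, while 1.9% were called. Both were from the pair of Zbtb16 peaks picked by position, so nothing is read from them. Among the other 46 peaks none was called in either comparison. Of these 46, 7 reached an unadjusted p under 0.05 in LL vs PL, against 7.82% of all tested peaks, and 10 in LBL vs PBL, against 14.2%, and DESeq2 called 0 in both. In 4 of the 46 peaks the 4 libraries with LPS at both injections all lay above the 5 libraries with LPS once, a pattern that 2.48% of all tested peaks showed, and in none did all 4 lie below, against 2.19%. The 4 peaks were 2 of the 3 Zbtb16 peaks chosen by gene name, and the Fkbp5 peaks in intron 5 and in intron 1 of the longer transcript. For LL vs PL sorter and group cannot be told apart, and LBL vs PBL was within a sorter but across isolation days. The median log2 fold change of the 3 Zbtb16 peaks chosen by gene name was 0.24 in LL vs PL and 0.58 in LBL vs PBL. That of the 14 Fkbp5 peaks was 0.15 and -0.05, and that of the 10 Nr3c1 peaks was -0.03 and -0.01.

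**Figure D4:**
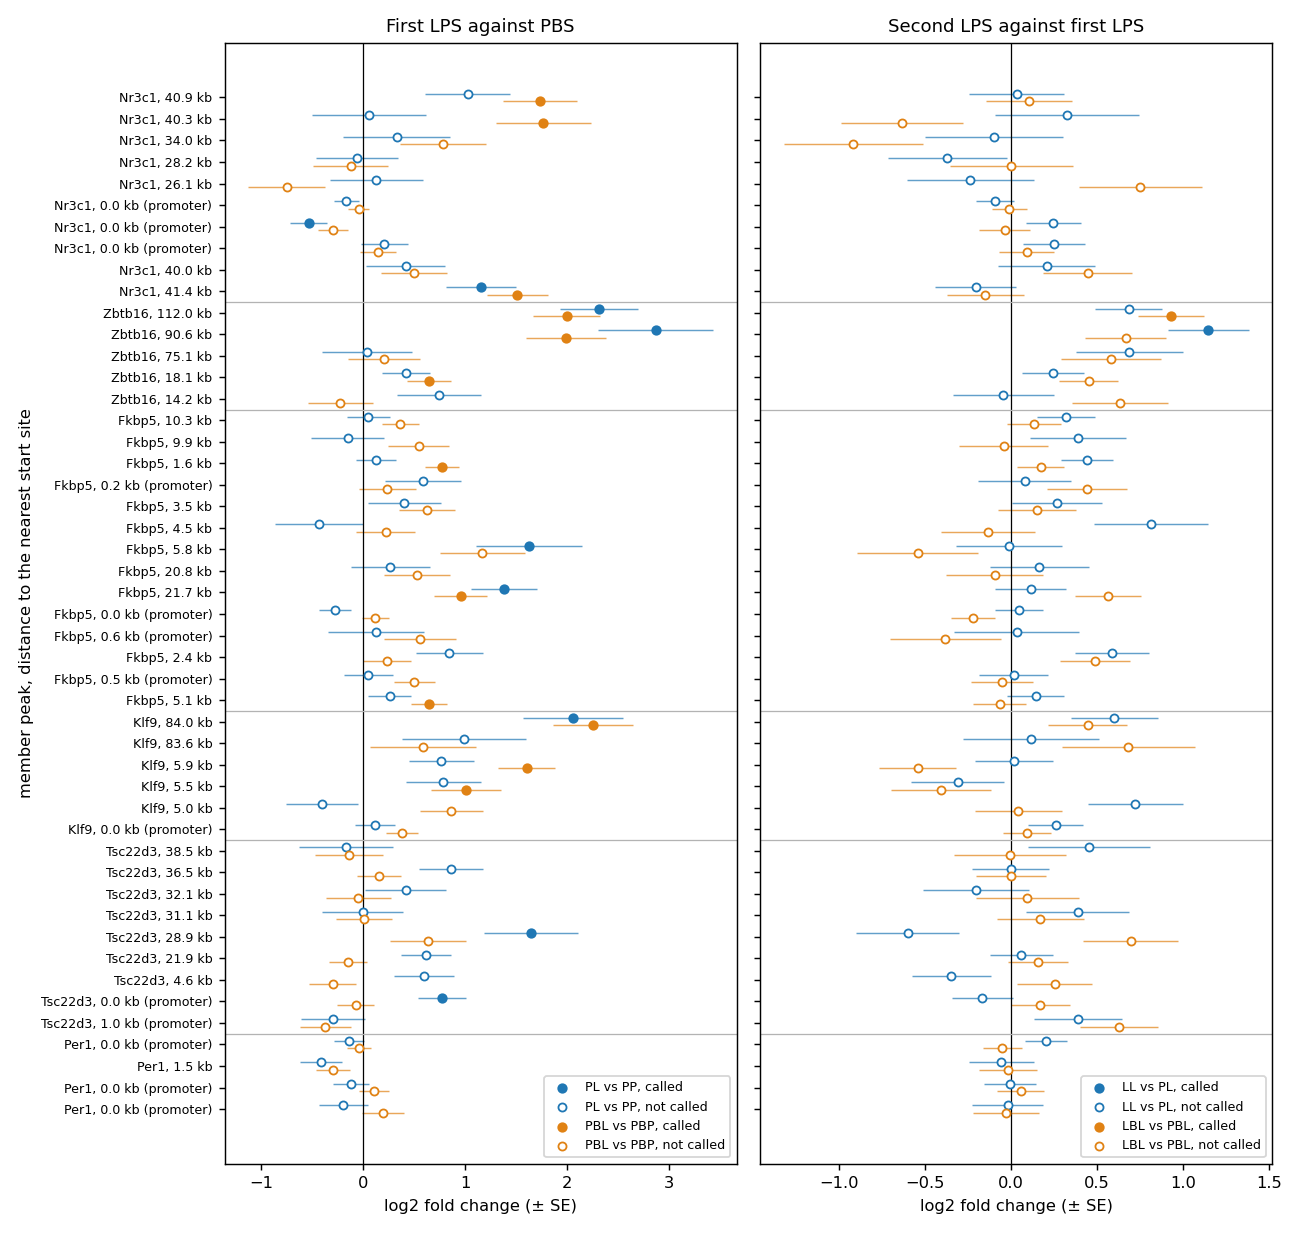
Log2 fold change with its SE (horizontal axis) of all 48 member peaks (vertical axis, by gene and distance to the nearest start) for first LPS against PBS (left, PL vs PP in blue and PBL vs PBP in orange) and for second against first LPS (right, LL vs PL in blue and LBL vs PBL in orange). Filled points were called, which holds for 9 and 12 peaks on the left and for 1 and 1, both in Zbtb16, on the right.

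Repopulated and original microglia were compared at each state of exposure. In PBP vs PP 0 of the 48 peaks were called, against 0.16% of all tested peaks, in PBL vs PL 0 against 0.0826%, and in LBL vs LL 0 against 0.0506%. The difference between the first-LPS responses was called at 0 member peaks against 0.0746% of all tested peaks. An unadjusted p under 0.05 was reached by 4 of the 46 peaks outside the picked pair in PBP vs PP, where 9.73% of all tested peaks reached it, and by 4 in PBL vs PL, where 10.8% did. It was reached by 2 in LBL vs LL, where 8.06% of all tested peaks did, and by 6 for the difference, where 11.1% did. DESeq2 called 0 in all 4. All 9 Tsc22d3 peaks had a log2 fold change above 0 in PBP vs PP, with a median of 0.40. For Klf9, 5 of the 6 peaks had one below 0, with a median of -0.34. Of all tested peaks, 49.9% had one above 0. None of the Tsc22d3 or Klf9 peaks passed the test. PBP vs PP was within 1 sorter but across isolation days.

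The peaks whose levels followed the Zbtb16 intron 3 peak most closely over the 13 libraries, by Pearson correlation of log2 CPM, were assigned to Mir5104 (0.972), Eloc (0.971), 4921509O07Rik (0.968), Arhgap24 (0.967) and Gm3716 (0.966). For the intron 2 peak they were assigned to Gcnt2 (0.969), Rbpj (0.960), Il4ra (0.954), Zbtb16 itself through the intron 3 peak (0.953) and Tcf7l2 (0.952). The 13 libraries share the contrast of LPS with PBS, so these correlations describe likeness and carry no test. The Klf9 peak 83954 bp upstream had a correlation of 0.960 with the intron 3 peak, and the Fkbp5 intron 1 peak one of 0.948. These were the highest among the members outside the picked pair. Other members ranged down to -0.65 at an Nr3c1 promoter peak and -0.68 at the Per1 intron 1 peak.

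Other known receptor targets showed changes in both directions. Of 32 such genes, 28 had a peak, and 143 of their peaks were tested. In PL vs PP 15 were higher and 5 lower, which is 14.0% called against 7.46% of all tested peaks, and in PBL vs PBP 24 were higher and 8 lower, or 22.4% against 9.96%. In LL vs PP 14 were higher and 0 lower, or 9.79% against 6.13%, and in LBL vs PBP 16 were higher and 3 lower, or 13.3% against 4.82%. The median log2 fold change of the list was 0.05, 0.13, 0.18 and 0.17 in these comparisons, and that of all tested peaks lay between -0.0038 and 0.012. Many of these genes also answer to NF-kB or other inflammatory signals, and the list was drawn up with results of these data known.

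By smallest p in each direction, an exon peak of Hif3a, a hypoxia-inducible factor, led the rise in PL vs PP (1.11 ± 0.18, adjusted p = 2.63e-06). The promoter of Dusp1, a phosphatase that ends MAP kinase signalling, led the fall (-0.66 ± 0.16, adjusted p = 0.00253). It measured 112 ± 2.35 CPM in PP and 71.0 ± 19.9 CPM in PL (SD, n = 2 each), so the PL libraries differed widely. Its mean was 80.5 CPM in PBP and 94.3 CPM in PBL. In PBL vs PBP a promoter peak of Mt2, a metallothionein, rose most clearly, from 4.37 ± 2.45 CPM in PBP (SD, n = 2) to 29.1 ± 3.86 CPM in PBL (SD, n = 3; 2.63 ± 0.33, adjusted p = 1.09e-10). Rgs2, a regulator of G protein signalling, led the fall (-1.16 ± 0.22, adjusted p = 3.07e-05) at a distal peak. A peak of Cebpd, a C/EBP transcription factor, led in LL vs PP (1.80 ± 0.32, adjusted p = 2.56e-05) and LBL vs PBP (1.92 ± 0.25, adjusted p = 3.59e-09), where an intron peak assigned to Sgk1, a kinase, fell (-1.39 ± 0.33, adjusted p = 0.00231). Between second and first LPS, 2 peaks of the list rose and 2 fell in LBL vs PBL, led by the same Cebpd peak (0.83 ± 0.18, adjusted p = 0.00306) and by the Mt2 promoter peak (-1.26 ± 0.24, adjusted p = 0.000592). No peak of the list was called in LL vs PL.

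Receptor chaperones, coregulators and steroid-handling genes were covered by 66 tested peaks of 16 of 20 genes. They gave 2 higher and 3 lower in PL vs PP (7.58% called, against 7.46% of all tested peaks). The counts were 5 higher and 4 lower for PBL vs PBP (13.6% against 9.96%), 3 and 3 for LL vs PP (9.09% against 6.13%), and 2 and 1 for LBL vs PBP (4.55% against 4.82%). The shares for PL vs PP and LBL vs PBP were thus near those of all peaks. A distal peak of the coactivator Ncoa2 led the rises in PL vs PP (1.28 ± 0.35, adjusted p = 0.00947) and PBL vs PBP (1.72 ± 0.30, adjusted p = 4.40e-06). An intron peak of the coactivator Ncoa3 led them in LL vs PP (1.36 ± 0.33, adjusted p = 0.00394) and LBL vs PBP (1.05 ± 0.29, adjusted p = 0.0139). The promoter peak of the acetyltransferase Ep300 led the falls in PL vs PP (-0.69 ± 0.15, adjusted p = 0.000669). Its mean was 118 CPM in PP and 74.3 CPM in PL (SD 17.7, n = 2), so the PL libraries differed widely. The promoter peak of the receptor chaperone Hsp90ab1 led the falls in LL vs PP (-0.59 ± 0.12, adjusted p = 0.000455). Its mean levels were 179 CPM in PP, 130 in PBP, 123 in PL, 135 in PBL, 119 in LL and 117 in LBL. PP alone stood high there, and the PBP mean lay among those of the LPS groups. Neither promoter peak was called in PBL vs PBP or LBL vs PBP. In LBL vs PBL, where 3.03% of the list was called against 1.9% of all tested peaks, a distal Ep300 peak rose (0.91 ± 0.24, adjusted p = 0.0186). The list's median log2 fold change was below 0 in all 4 LPS comparisons, from -0.13 to -0.06.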

How the data were processed

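Peaks of 13 ATAC-seq libraries were read from a table of counts that the authors deposited, with 1 set of peaks for all libraries. The deposited values were estimated counts per peak in steps of 0.5, not normalized, and no source used here names the tool that counted them. Per the submitters' processing notes, the build was GRCm38 (mm10) and the tools, named without their roles, were Bowtie2 2.2.6, cutadapt 1.9.1, MACS2 2.1.1, SAMtools 1.7 with Picard 1.126, HOMER 4.9.1, ChIPseeker 1.38, bedtools 2.26 and deepTools 3.3.0. Peak-to-gene assignments, distances and intron numbers are those of the deposited table, and sorter and isolation day come from the deposited sample table.

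Counts were rounded to whole numbers. Peaks were filtered with filterByExpr at a minimum count of 10, which left 37516 of 38620. edgeR's quasi-likelihood F test was fitted with TMM scaling to all 13 libraries with 6 group means, and two-sided p-values had Benjamini-Hochberg adjustment across every tested peak. On data simulated for PL vs PP, 89.4% of peaks changed 4-fold, 53.7% of those changed 2-fold and 7.46% of those changed 1.5-fold were called, and 5 of 36964 unchanged peaks. The changed peaks in the simulation were drawn only from peaks with higher mean counts, so these shares do not hold for small peaks. No difference by sorter, isolation day or promoter share was simulated. Libraries are pools of mice, so p-values measure the spread between pools. The PP pair and the LBL pair each differed by no more than counting noise and were kept as 2 libraries, with their sum to 1 as an alternative chosen after seeing the data.

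Values in every library are given for the 2 Zbtb16 peaks chosen by position, for promoter peaks of members and for members called in at least 1 of 9 comparisons, and other members by range. From the lists of other receptor targets and of chaperones, coregulators and steroid-handling genes, the called peak with the smallest p in each direction is named, except where it is not reported here. The members and lists were chosen with earlier results of these data known.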

Additional observations from a re-analysis of the deposited data

Results flagged for a closer look

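Some member peaks moved in opposite directions in the parallel comparisons, with every library of one group on one side of the other group. The peaks were picked out for this pattern, and its share among all tested peaks was not counted. Separation of groups this small was frequent among the members. In PBP vs PP alone, 8 of the 46 member peaks outside the picked pair had all PBP libraries above PP and 10 all below. The share of all tested peaks separated in this way was not counted, so nothing is read from these counts. Except for the first-LPS response, the opposed differences were not tested. The Zbtb16 peak at 48744940 had a log2 fold change of 0.83 in PBP vs PP and -0.53 in LBL vs LL. It is one of the pair picked by position and held 4 counts over both PP libraries. The Fkbp5 peak at 28420155 had -0.42 in PBP vs PP and 0.23 in PBL vs PL. The Tsc22d3 peak at 140513393 had -0.60 in LL vs PL and 0.69 in LBL vs PBL, and, from the same libraries, -0.61 in PBL vs PL and 0.68 in LBL vs LL. The Tsc22d3 peak at 140537670 had 0.60 in PL vs PP against -0.30 in PBL vs PBP, a difference of -0.90 ± 0.37 (SE) with an adjusted p of 0.323 by edgeR, and 0.52 in PBP vs PP and -0.38 in PBL vs PL.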

How the results depend on the processing

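Of 40 calls of member peaks, 16 held under each of the up to 21 alternatives that gave an adjusted p, 24 were lost under at least 1 and 0 reversed. Outside the 2 Zbtb16 peaks chosen by position, 8 of 30 calls held by the same count. DESeq2 called 2 members in PL vs PP, 7 in PBL vs PBP, 3 in LL vs PP, 7 in LBL vs PBP and 0 in LL vs PL and in LBL vs PBL. It gave no adjusted p for 8 of the 40 calls. DESeq2 did not make these calls, but they were not scored as lost under it. Leaving out 1 library gave 3 to 10 calls in PL vs PP, 6 to 14 in PBL vs PBP, 4 to 9 in LL vs PP, 7 to 12 in LBL vs PBP, 0 to 1 in LL vs PL and in LBL vs PBL, 0 to 2 for the difference in first-LPS response (2 without PL 1_2) and 0 in PBP vs PP, PBL vs PL and LBL vs LL. The count fell to 3 without PP 1_2 or PP 3_4 and to 5 without PL 3_4 in PL vs PP, to 6 without PBP 1_2 in PBL vs PBP, and to 4 without PP 1_2 in LL vs PP. It fell to 0 without PL 3_4, LL 1_2 or LL 3_4 in LL vs PL, and without LBL 1_2 in LBL vs PBL. The counts over all tested peaks moved too, and were 2799 in PL vs PP (681 to 5109 with 1 library left out, 808 with DESeq2 and 5090 with the day term), 3737 in PBL vs PBP (1732 to 4423, and 1213 with DESeq2), 2301 in LL vs PP (634 to 3067, and 533) and 1809 in LBL vs PBP (620 to 2340, and 506). A group left with 1 library was taken to vary like the others. With the PP and LBL pairs summed, the counts were 6 in PL vs PP, 10 in PBL vs PBP, 5 in LL vs PP and 9 in LBL vs PBP. Pool names do not pair the samples, since same-named pools deviated together with correlations of -0.0174 to 0.162. With the pool name as a replicate block, the counts were 9 in PL vs PP (3162 over all tested peaks), 10 in PBL vs PBP (3197), 8 in LL vs PP (2582) and 11 in LBL vs PBP (1979). The count was 1 in LL vs PL (49) and in LBL vs PBL (472). With isolation day as a term, which could be fitted for PL vs PP and PBP vs PP only, the member counts were 10 and 0 (5090 and 815 over all tested peaks). The PP libraries were the shallowest, and small peaks held few counts there.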

Other observations

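In intron 4 of Zbtb16, 2 further peaks were assigned by nearest start to Nnmt, a methyltransferase of nicotinamide, and were not members. The peak at 48671912 to 48672333 measured 13.1 ± 1.52 CPM in LL and 6.97 ± 4.83 CPM in PL (SD, n = 2 each), and the peak at 48707575 to 48707854 measured 8.57 ± 1.53 CPM in LL and 4.19 ± 0.476 CPM in PL (SD, n = 2 each). Neither was called in the LPS comparisons or between second and first LPS.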
